A study of Mus musculus with 8 samples.

Results

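Oxidative phosphorylation couples the transfer of electrons from NADH and succinate to oxygen with the synthesis of ATP. The genes described here encode subunits of its complexes and are carried in the nucleus. They were taken from the gene table by symbol: Nduf genes of the A, B, C, S and V series without the Ndufaf assembly factors (complex I), Sdha to Sdhd (complex II), Uqcr genes (complex III), Cox4 to Cox8 genes (complex IV) and Atp5 genes (complex V). The rule took 82 of 14765 genes, of which 38 belonged to complex I, 4 to complex II, 8 to complex III, 16 to complex IV and 16 to complex V. The rule itself uses symbols and no measured value, so a subunit gene under another symbol is not included. Atp5mpl, Cox8b and Cox8c match the rule but had no row in the gene table. Of the 82 genes, 81 passed the filter on low counts and entered the test, and Cox7b2 did not.

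Messenger RNA of PrL tissue was selected by its poly(A) tail and sequenced in bulk. PrL is read here as the prelimbic cortex, since the study is about the cortical control of pain and anxiety-like behaviour. All mice were of the C57 genotype, with 4 Sham and 4 SNI libraries. SNI is read as spared nerve injury, in which branches of the sciatic nerve are cut to produce long-lasting neuropathic pain, and Sham as its surgical control. The labels give no age, sex, time after surgery or batch. Nor do they tie libraries to individual mice or pools, so the p-values below rest on a spread between libraries that may be partly technical. Totals were 14735602 to 19602487 counts per library, and levels are given as CPM, counts scaled to a common library size after TMM normalisation. Markers of cortical excitatory neurons, such as Mef2c and Nrn1, were present in all 8 libraries, with a summed level of 5950 to 6820 CPM in Sham and 4500 to 6040 CPM in SNI. The summed level of 10 markers of striatal medium spiny neurons, which are not cortical, was 253 to 502 CPM in Sham and 377, 901, 454 and 890 CPM in SNI replicates 1 to 4. Results on the subunits are therefore also given without SNI replicates 2 and 4, a choice made after seeing the data. In bulk tissue, fewer cells of a type and less RNA per cell cannot be told apart.

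The respiratory chain lies in the inner mitochondrial membrane. Complexes I, III and IV pump protons while passing electrons to oxygen, complex II feeds in electrons from succinate without pumping, and complex V, the ATP synthase, uses the returning protons to make ATP. A small set of core subunits is encoded by mitochondrial DNA, and all other subunits, complex II included, come from nuclear genes whose products are imported. Neurons rely heavily on this pathway to fuel ion pumping and synaptic transmission, and several complex IV subunits have a second gene whose use is restricted to muscle, testis or particular cell types.

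The subunit genes were at nearly the same level in Sham and SNI tissue. None of the 81 tested genes was higher and none was lower in SNI at a false discovery rate of 0.05 in edgeR's quasi-likelihood test, in a comparison that called 5.02% of all 13911 genes tested (2.15% higher and 2.87% lower). Of the 698 calls over all genes 299 were higher, and with scaling by library totals alone 446 of 722 were. At an unadjusted p under 0.05 there were 5 subunit genes, against 21.1% of all genes. DESeq2 called 0 higher and 1 lower, limma voom called 0 in either direction, and without SNI replicates 2 and 4 edgeR also called 0 in either direction. The median log2 fold change, SNI against Sham, was 0.01 over the 81 genes (46 positive and 35 negative) and 0.01 over all genes tested. The split of signs depended on the processing, with 60 positive under library totals alone, 32 in limma voom, 31 without SNI replicates 2 and 4 and 19 with offsets for transcript length. Beside this, 4 of 10 excitatory neuron markers were called lower in SNI (Nrn1, Mef2c, Emx1 and Itpka) and none higher. The shares over all genes tested were 2.87% and 2.15%. The median log2 fold change over the 10 was -0.36, and values ran from -0.79 (Nrn1) to 0.01 (Neurod2). The marker lists were chosen with earlier results of these data known, so this count is not independent of the data. The part of these neurons in the subunit levels was not tested.

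The changes were also small in size. The median absolute log2 fold change was 0.0589 for the subunit genes and 0.139 for all genes, with median standard errors of 0.0872 and 0.112. Most subunit genes are abundant, so genes of like abundance are the closer reference: the 3404 genes between 58.0 and 264 CPM, the range that holds the middle of the subunit genes, had a median absolute log2 fold change of 0.106 at a median standard error of 0.0849, and 5.73% of them were called. The 95% confidence interval of the log2 fold change lay within 0.5 of zero for 75 of the 81 subunit genes and within 0.25 of zero for 43. Taking out 6 isoform genes of restricted use (Cox4i2, Cox6a2, Cox6b2, Cox7a1, Cox7b2 and Ndufa4l2), the interval lay within 0.5 of zero for 75 of 76, the exception being Ndufa12.

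**Figure D1:**
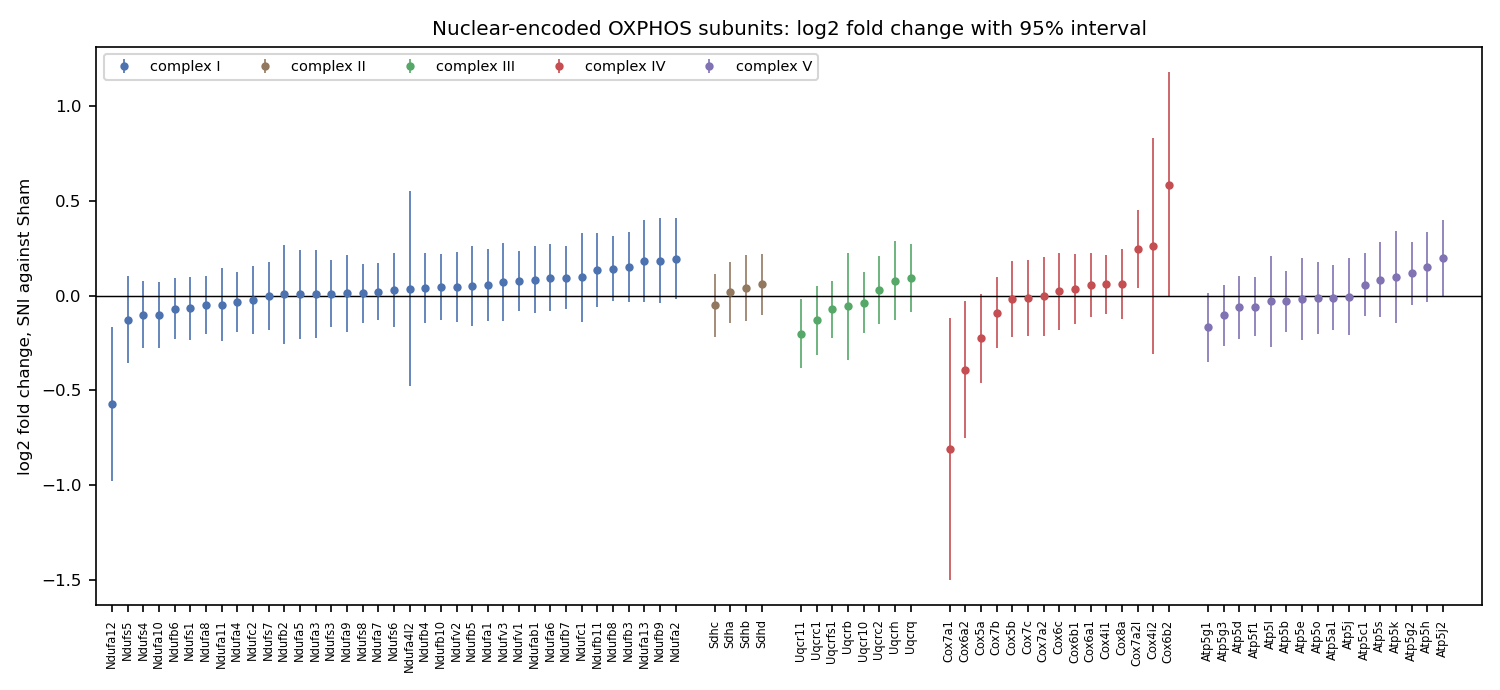
Each point is the log2 fold change (SNI against Sham, vertical axis) of 1 tested subunit gene, ordered within its complex along the horizontal axis, and each bar is its 95% confidence interval from 4 against 4 libraries. Most points lie close to the zero line, and Ndufa12, Cox7a1 and Cox6b2 are farthest from it, at -0.57, -0.81 and 0.59.

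The whole set varied between libraries more than between groups. Summed over all 82 genes, the level was 13860, 13640, 12780 and 13580 CPM in Sham replicates 1 to 4 and 13040, 14300, 13560 and 13340 CPM in SNI replicates 1 to 4. The groups overlapped, with means of 13470 ± 472 and 13560 ± 540 CPM (SD, n = 4 libraries each). Among the 76 subunit genes of wide use, Sham replicate 3 held the lowest Sham value for 54 and the lowest of all 8 values for 26. SNI replicate 2 held the highest SNI value for 45 and the highest of all 8 values for 35. These shifts were larger for short transcripts: for the 49 genes with a transcript under 1 kb, the mean deviation on the log2 scale from each gene's mean was -0.13 in Sham replicate 3 and 0.13 in SNI replicate 2, and for the 27 longer ones it was -0.06 and 0.08. The part that transcript length or its recovery has in these shifts was not tested. Within a group the highest library was above the lowest by a median of 1.16-fold in Sham and 1.21-fold in SNI. Ndufa12 had the widest range in Sham, at 1.84-fold, and Uqcrb in SNI, at 1.67-fold. Ndufv1, the flavoprotein that accepts electrons from NADH, had the narrowest in Sham, at 1.02-fold.

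**Figure D2:**
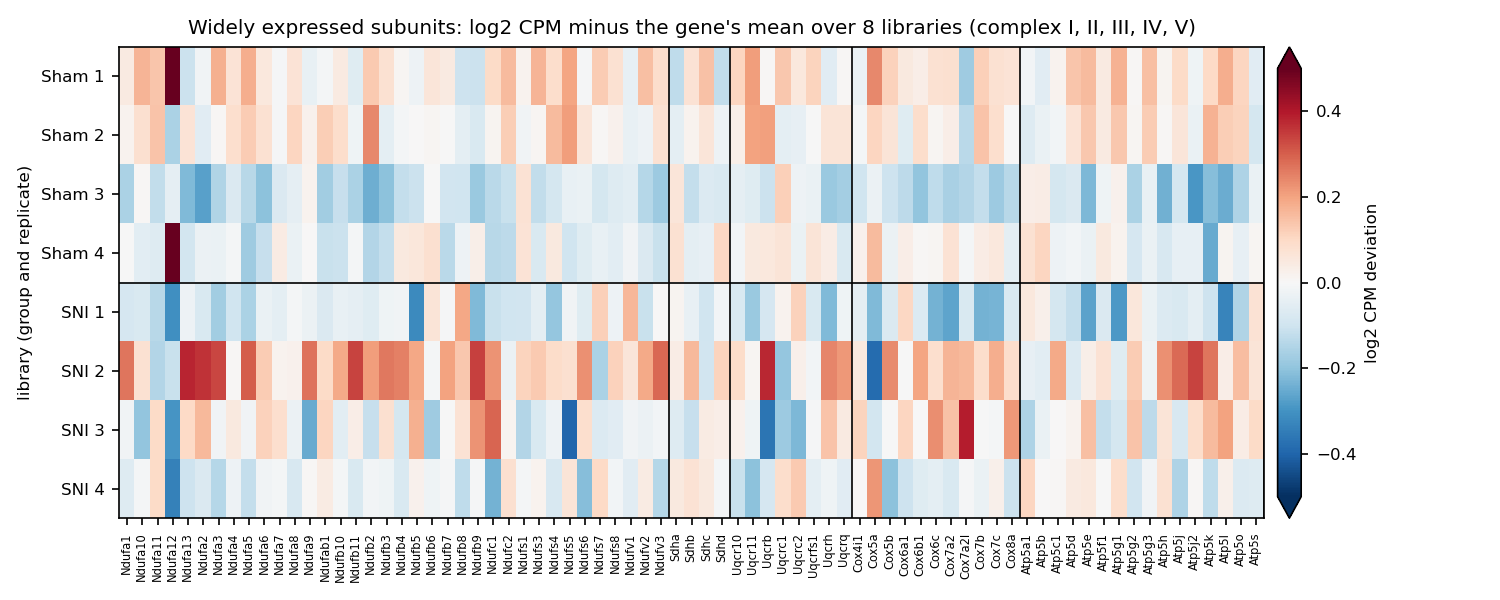
Colour shows the log2 CPM of widely used subunit genes (columns, by complex from I to V) in each library (rows) minus the gene's mean over 8 libraries. Sham replicate 3 is pale to blue for most genes and SNI replicate 2 red for most, with mean deviations of -0.10 and 0.12. Ndufa12 is dark red in Sham replicates 1 and 4, where the colour scale ends.

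Promoters of these genes are known as targets of the factors NRF1, GABP (an ETS family factor, also called NRF-2) and YY1. RefSeq promoter windows (GRCm38.p6, from 250 bases before to 50 after the start of transcription) were found for 66 of the 82 genes and searched on both strands for GCGCATGC (NRF1), CCGGAAGT (ETS) and AAGATGGCG (YY1). A gene with several windows was counted once, and held a motif if any of its windows did. The NRF1 letters were in 15.2% of the 66 subunit genes, against 5.7% of tested genes and 3.05% of all 27025 genes with an entry. For YY1 the shares were 10.6%, 3.27% and 1.64%, and for ETS they were 7.58%, 8.27% and 4.31%. At least 1 of the motifs was in 21 of the 66 genes, or 31.8%, against 16.1% for tested genes and 8.47% for all genes with an entry. A match describes the letters only and was not tied to binding in these data.

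Complex I takes electrons from NADH and is the largest complex of the chain. Of its 38 genes, all tested, 26 had a positive and 12 a negative log2 fold change, with a median of 0.03 and a range from -0.57 to 0.20. Per kilobase of transcript, Ndufa4 had the highest level, 550.6 ± 27.25 CPM per kb in Sham and 537.4 ± 23.48 CPM per kb in SNI (mean and SD of 4 libraries). Ndufa4 keeps its old complex I name although its protein is now placed in complex IV. The next level was that of Ndufs5, at 209.3 ± 22.86 CPM per kb in Sham. By its longest principal transcript Ndufs5 was at 161.6 CPM per kb, below Ndufb10 at 181.4. The lowest level was that of the Ndufa4 paralogue Ndufa4l2, a hypoxia-responsive gene, at 3.308 ± 0.799. Core subunits, which carry the electron path, lay between Ndufa4 and Ndufa4l2, among them Ndufv1 (109.0 ± 1.086) and Ndufs1 (51.87 ± 1.546 CPM per kb in Sham).

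Ndufa12 was the subunit gene of smallest p. It encodes an accessory subunit that joins complex I late in assembly, and it lies on chromosome 10 from 94198720 to 94221443 (GRCm38), overlapping no other annotated gene. Its level was 72.5, 44.8, 48.5 and 82.4 CPM in Sham replicates 1 to 4 and 40.5, 46.3, 40.7 and 39.5 CPM in SNI replicates 1 to 4. Sham replicates 1 and 4 were high, Sham replicates 2 and 3 lay near the SNI values, and the groups overlapped. The log2 fold change was -0.57 ± 0.182 (SE), with an edgeR adjusted p of 0.108 and a 95% interval from -0.98 to -0.17. DESeq2 gave -0.58 with an adjusted p of 0.0111, and leaving out Sham replicate 2 gave -0.70 with an edgeR adjusted p of 0.0215, while leaving out Sham replicate 4 gave -0.40. The Sham libraries high in Ndufa12 were also high in oligodendrocyte markers, whose summed level was 6720, 3050, 3690 and 6320 CPM in Sham. In SNI that sum was 4260, 5370, 5960 and 7530 CPM while Ndufa12 stayed between 39.5 and 46.3 CPM. The part of these cells in the Ndufa12 values was not tested.

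Ndufa2 and Ndufa13, accessory subunits of the matrix and membrane arm, had the next smallest p-values of complex I. Ndufa2 measured 103, 101, 86.5 and 102 CPM in Sham and 99.0, 134, 117 and 99.4 CPM in SNI. SNI replicate 2 was high, Sham replicate 3 was low and the groups overlapped (log2 fold change 0.20, edgeR adjusted p 0.281). Ndufa13 measured 135, 152, 125 and 136 CPM in Sham and 143, 189, 155 and 135 CPM in SNI, again with the highest value in SNI replicate 2 (log2 fold change 0.18, edgeR adjusted p 0.317). Without SNI replicate 2 the log2 fold changes were 0.10 for Ndufa2 and 0.08 for Ndufa13. Ndufa2 overlaps Tmco6 and Ndufa13 overlaps Tssk6, each on the opposite strand, and Ndufa13 also overlaps Yjefn3 on its own strand, and the use of strand in the counting is not stated in what was used here.

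Complex II, succinate dehydrogenase, belongs to both the tricarboxylic acid cycle and the respiratory chain. All 4 of its genes had intervals within 0.25 of zero. Sdha, the flavoprotein that oxidises succinate, measured 395, 418, 450 and 455 CPM in Sham and 435, 443, 413 and 447 CPM in SNI. Sdhb, its iron-sulfur partner, measured 179, 172, 156 and 164 CPM in Sham and 166, 190, 157 and 179 CPM in SNI. For both genes the groups overlapped through most of their range, with log2 fold changes of 0.02 and 0.04 and edgeR adjusted p of 0.927 and 0.813. Their levels per length were alike in Sham, at 148.2 ± 9.745 and 147.0 ± 8.428 CPM per kb (SD, n = 4 libraries each). The membrane anchors were lower, with Sdhd at 62.64 ± 4.376 and Sdhc at 24.42 ± 1.688 CPM per kb. Before division by length these anchors were alike in Sham, at 77.11 ± 5.386 CPM for Sdhd and 77.42 ± 5.354 CPM for Sdhc. The gap between them therefore rests on the annotated transcript lengths, 1231 and 3171 bases. Sdhd and Sdhc did not differ between the groups either. The log2 fold changes, SNI against Sham, were 0.06 for Sdhd and -0.05 for Sdhc, with edgeR adjusted p of 0.693 and 0.75.

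Complex III, the cytochrome bc1 complex, passes electrons from ubiquinol to cytochrome c. Its 8 genes had a median log2 fold change of -0.05, 3 of them positive and 5 negative, and every interval lay within 0.5 of zero. Uqcr11, the smallest subunit, lies on chromosome 10 from 80402997 to 80406830 and had the smallest p of the complex. It measured 163, 162, 135 and 146 CPM in Sham and 124, 142, 139 and 122 CPM in SNI. Sham replicates 1, 2 and 4 lay above every SNI library, and Sham replicate 3 lay below SNI replicates 2 and 3. The log2 fold change was -0.20 ± 0.0855 (SE, edgeR adjusted p 0.187), and with offsets that correct each library for transcript length it was -0.33 with an adjusted p of 0.0143. The Uqcr11 promoter is shown because it alone held 2 of the motifs. Its window runs from 150 bases before to 30 bases into the transcript on the minus strand of chr10:80406792-80406971 (RefSeq, GRCm38.p6), with the ETS letters and the reverse complement of the NRF1 letters in capitals.
Uqcr11: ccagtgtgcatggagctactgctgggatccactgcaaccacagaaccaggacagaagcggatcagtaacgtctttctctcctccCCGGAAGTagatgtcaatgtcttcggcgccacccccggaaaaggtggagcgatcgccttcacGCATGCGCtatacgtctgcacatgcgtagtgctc

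Other complex III subunits differed less. Uqcrc1, a core protein of the matrix side, measured 296, 261, 294 and 282 CPM in Sham and 273, 237, 238 and 287 CPM in SNI. Its highest SNI library, replicate 4, lay inside the Sham range (log2 fold change -0.13, edgeR adjusted p 0.404). Uqcrc2, the other core protein, had a log2 fold change of 0.03 (adjusted p 0.88) and the lowest level per length of the complex, 91.52 ± 2.863 CPM per kb in Sham. The highest was that of Uqcrq, an accessory subunit, at 474.2 ± 33.21 CPM per kb in Sham and 505.1 ± 43.91 in SNI, with an adjusted p of 0.57 in edgeR. That rank rests on its shortest principal transcript. By its longest principal transcript Uqcrq was at 126.3 CPM per kb in Sham, below Uqcr11 at 340.6. Uqcrb, which binds near the ubiquinone site, measured 72.3, 99.4, 59.4 and 72.2 CPM in SNI, so that SNI replicates 2 and 3 were the highest and lowest of all 8 libraries. It has 3 near-identical copies elsewhere in the genome, and its counts are therefore uncertain.

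Complex IV, cytochrome c oxidase, reduces oxygen to water. The highest levels per length of all 82 genes were those of 3 of its subunits, with Cox4i1 at 988.2 ± 34.12, Cox8a at 980.5 ± 58.35 and Cox6a1 at 966.3 ± 55.87 CPM per kb in Sham, which do not differ beyond their spread. Cox4i1, the largest nuclear subunit, measured 737, 746, 701 and 761 CPM in Sham and 728, 777, 810 and 751 CPM in SNI (log2 fold change 0.06, edgeR adjusted p 0.69). The ranges of the groups lay largely over each other. Over the 15 tested genes of the complex the median log2 fold change was 0.02, with 8 positive and 7 negative, and 11 intervals lay within 0.5 of zero.

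Cox7a2l, also known as SCAF1, is a Cox7a relative described as a link of complexes III and IV in supercomplexes, a role not examined in these mice. It lies on chromosome 17 from 83501918 to 83517330 and had the smallest p of complex IV. The values were 150, 155, 154 and 169 CPM in Sham and 161, 190, 223 and 169 CPM in SNI. SNI replicates 2 and 3 lay above all Sham libraries, SNI replicate 4 was level with the highest of them and SNI replicate 1 lay inside their range. The log2 fold change was 0.25 ± 0.0968 (SE, edgeR adjusted p 0.157), and it was 0.15 without SNI replicate 3. Microglial markers were highest in the same libraries, with a summed level of 388, 422, 404 and 472 CPM in Sham and 451, 517, 694 and 434 CPM in SNI. Of the 8 microglial markers, 2 (Tmem119 and P2ry12) were called higher in SNI and none lower, against 2.15% and 2.87% of all genes tested. Endothelial markers summed to 328, 401, 450 and 310 CPM in SNI. Within SNI, replicates 2 and 3 also held the highest sums of astrocyte (4790 and 5030 CPM), mural cell (287 and 357 CPM) and red blood cell markers (184 CPM in both). The other marker lists did not have their highest SNI sums in these libraries together. What part these cells have in the Cox7a2l values was not tested.

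Cox5a, the subunit that binds a thyroid hormone metabolite, measured 82.2, 74.9, 68.2 and 77.7 CPM in Sham and 59.7, 53.3, 65.2 and 81.0 CPM in SNI. SNI replicates 1, 2 and 3 lay below every Sham library and SNI replicate 4 was near the top of the Sham range (log2 fold change -0.23, edgeR adjusted p 0.259). Cox5a was singled out for its wide SNI range, after its values were seen.

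The isoform genes of restricted use stood far below their partners in every library. In each library the count of the rarer gene was divided by that of its partner. Ratios of Atp5g1 and of Atp5g2 to Atp5g3, which are nearer in level, were formed in the same way. All 7 ratios were tested with an exact two-sided permutation test over 70 assignments, whose smallest possible p is 0.0286. None passed after Benjamini-Hochberg adjustment over the 7 pairs, where the smallest adjusted p was 0.1. A single pair without any overlap could not pass this adjustment, so the test cannot decide whether a single pair differed.

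Cox7a1 is the heart and skeletal muscle isoform of Cox7a, on chromosome 7 from 30184144 to 30186078. It measured 1.83, 1.79, 1.2 and 1.43 CPM in Sham and 1.12, 1.09, 0.532 and 0.783 CPM in SNI, and every SNI library lay below every Sham library. Non-overlapping groups were seen for 3 of the 81 tested subunit genes, against 12.7% of all genes tested. The log2 fold change was -0.81 ± 0.325 (SE, edgeR adjusted p 0.166). As a share of its widely used partner Cox7a2 it was 1.18%, 1.2%, 0.92% and 0.933% in Sham and 0.915%, 0.663%, 0.329% and 0.564% in SNI (exact p 0.0286, adjusted 0.1). The nearest shares were those of Sham replicate 3 and SNI replicate 1, from 19 and 18 counts of Cox7a1, so the groups barely separated. Cox7a2 itself had a log2 fold change of -0.0036, with 147.1 ± 11.28 CPM in Sham and 146.7 ± 20.19 CPM in SNI. Muscle markers summed to 22.3 to 24.3 CPM in Sham and 17.9 to 22.8 CPM in SNI, most of it Acta1, while Ckm and Mb, which define muscle, were near the detection limit at 0.334 ± 0.168 and 0.143 ± 0.158 CPM in Sham (SD over 4 libraries). Of 6 tested muscle markers, Acta1 was called lower and Myh4 higher in SNI, and their part in the Cox7a1 values was not tested. The pair of promoters is shown because the restricted and the widely used gene differ in their make-up: neither holds any of the motifs, and the Cox7a2 window has 15 CpG and 62.2% G and C, against 6 and 53.3% for Cox7a1. They run from 150 bases before to 30 bases into the transcript, on the plus strand of chr7:30184021-30184200 and the minus strand of chr9:79759824-79760003 (RefSeq, GRCm38.p6).
Cox7a1: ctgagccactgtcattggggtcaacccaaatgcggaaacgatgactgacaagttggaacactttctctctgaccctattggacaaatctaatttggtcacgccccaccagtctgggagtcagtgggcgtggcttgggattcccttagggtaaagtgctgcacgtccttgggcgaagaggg
Cox7a2: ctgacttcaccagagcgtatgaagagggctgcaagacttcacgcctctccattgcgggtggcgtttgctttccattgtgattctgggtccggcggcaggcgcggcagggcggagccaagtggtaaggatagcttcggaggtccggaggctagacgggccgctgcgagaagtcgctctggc

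Cox6a2 is the muscle isoform of Cox6a, known in cortex from parvalbumin-positive fast-spiking interneurons. It lies on chromosome 7 from 128205435 to 128206387, overlapping Itgad on the opposite strand, so that its counts are uncertain. It measured 8.89, 6.84, 6.26 and 6.25 CPM in Sham and 4.77, 5.20, 5.39 and 6.15 CPM in SNI. Every SNI library lay below every Sham library, with SNI replicate 4 close to the lowest Sham values. The log2 fold change was -0.39 ± 0.17 (SE, edgeR adjusted p 0.2), and it was -0.26 without Sham replicate 1. Its share of Cox6a1 was 1.53%, 1.27%, 1.22% and 1.09% in Sham and 0.79%, 0.928%, 0.891% and 1.17% in SNI, where SNI replicate 4 lay above the lowest Sham library (exact p 0.0571, adjusted 0.1). Of 10 fast-spiking interneuron markers none was called, and their summed level was 893 to 1080 CPM in Sham and 829 to 979 CPM in SNI. The largest parts of that sum were Gad1 (326 ± 94.9 CPM in Sham, 282 ± 34.4 in SNI) and Gad2 (162 ± 20.1 and 168 ± 30.9). Neither gene is particular to fast-spiking cells, and Tac1 is also on the striatal list. Gad1 alone was at 467 CPM in Sham replicate 2, so the sum does not measure fast-spiking cells alone. Pvalb was at 50.7 ± 6.39 and 51.8 ± 8.4 CPM, and the channel gene Kcnc1 at 158 ± 6.35 and 128 ± 14.5 CPM (SD over 4 libraries; edgeR adjusted p 0.0551). Their part in the Cox6a2 values was not tested.

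Cox6b2, the testis isoform of Cox6b, was the subunit gene that lay higher in every SNI library. It measured 1.49, 1.26, 1.14 and 1.32 CPM in Sham and 1.73, 1.83, 2.66 and 1.63 CPM in SNI. SNI replicate 3 stood above the other SNI libraries. The log2 fold change was 0.59 ± 0.279 (SE, edgeR adjusted p 0.242), and without SNI replicate 3 it was 0.41. Its share of Cox6b1 was 0.737%, 0.6%, 0.659% and 0.665% in Sham and 0.919%, 0.808%, 1.34% and 0.858% in SNI, without overlap (exact p 0.0286, adjusted 0.1). Cox7b2, another testis isoform, was counted 7, 3, 12 and 6 times in Sham and 2, 5, 5 and 4 times in SNI and was not tested.

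Cox4i2 and Ndufa4l2 respond to low oxygen and are known in brain mainly from mural cells of the vessels. Cox4i2 measured 1.76, 2.46, 1.39 and 2.58 CPM in Sham and 2.66, 2.97, 2.0 and 2.17 CPM in SNI, with overlap (log2 fold change 0.26, edgeR adjusted p 0.617). Ndufa4l2 measured 2.65, 3.12, 2.46 and 4.13 CPM in Sham and 2.60, 2.77, 4.26 and 3.13 CPM in SNI (log2 fold change 0.04, edgeR adjusted p 0.95). It overlaps Shmt2 on the opposite strand, so its counts are uncertain. Sham replicate 4 and SNI replicate 3 held the highest Ndufa4l2 values of their groups. The same libraries held the highest summed level of 10 mural cell markers, at 223, 232, 243 and 286 CPM in Sham and 232, 287, 357 and 212 CPM in SNI, and the part of mural cells was not tested. The ratios to Cox4i1 and Ndufa4 had exact p of 0.371 and 0.629.

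**Figure D3:**
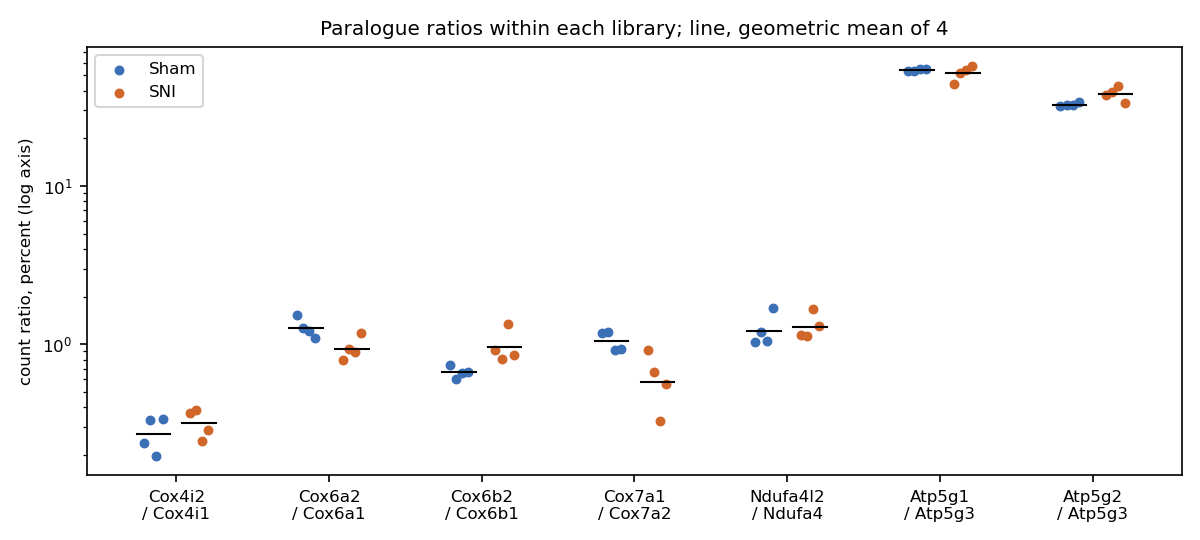
Points are the count of one gene as a percent of its partner (log axis) in each of 4 Sham and 4 SNI libraries for 7 pairs, with a line at the geometric mean of each group. The Sham and SNI points of Cox6b2 and of Cox7a1 do not overlap, and those of the other 5 pairs do.

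Complex V is the ATP synthase, a rotary enzyme with a catalytic head and a ring of c subunits in the membrane. Its 16 genes had a median log2 fold change of -0.01, with 6 positive and 10 negative, and all 16 intervals lay within 0.5 of zero. Atp5b, the catalytic beta subunit, was the highest of the complex per length, at 588.2 ± 30.34 CPM per kb in Sham and 576.0 ± 14.11 in SNI. It measured 1070, 1090, 1140 and 1200 CPM in Sham and 1130, 1070, 1090 and 1120 CPM in SNI, so the SNI values lay inside the Sham range (log2 fold change -0.03, edgeR adjusted p 0.858). Atp5s, a coupling factor, was the lowest, at 13.03 ± 0.384 and 13.82 ± 0.679 CPM per kb (adjusted p 0.644). Atp5j2, the f subunit of the membrane part, had the smallest p of the complex. Its values were 166, 165, 138 and 164 CPM in Sham and 163, 214, 180 and 170 CPM in SNI, with SNI replicate 2 high and Sham replicate 3 low (log2 fold change 0.20, edgeR adjusted p 0.248). Without SNI replicate 2 the log2 fold change was 0.11. Atp5h, the d subunit of the stalk, had a log2 fold change of 0.15 (edgeR adjusted p 0.329) and has 3 near-identical copies, so its counts are uncertain.

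The c ring is built from 1 mature protein that 3 genes encode with different import sequences. Atp5g3 measured 261, 257, 230 and 230 CPM in Sham and 230, 232, 215 and 233 CPM in SNI, and Sham replicates 1 and 2 stood above the other 6 libraries. Atp5g1 measured 140, 136, 126 and 126 CPM in Sham and 102, 119, 117 and 132 CPM in SNI, where SNI replicate 4 lay among the Sham values and the other SNI libraries below them. Atp5g2 measured 83.3, 83.6, 74.3 and 78.3 CPM in Sham and 86.3, 90.7, 91.7 and 77.7 CPM in SNI, where SNI replicate 4 lay among the Sham values and the other SNI libraries above them. The log2 fold changes were -0.10 for Atp5g3, -0.17 for Atp5g1 and 0.12 for Atp5g2, with edgeR adjusted p of 0.466, 0.277 and 0.421. Without SNI replicates 2 and 4 the log2 fold change of Atp5g1 was -0.27, with an adjusted p of 0.124 in edgeR. The Atp5g2 value was 0.00 in size and negative in sign with the transcript length offsets.

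Within libraries, the share of Atp5g2 relative to Atp5g3 was 31.9%, 32.5%, 32.4% and 34.0% in Sham and 37.5%, 39.1%, 42.6% and 33.4% in SNI. The Sham values were close together, SNI replicates 1, 2 and 3 lay above them and SNI replicate 4 lay among them (log2 difference 0.22, exact p 0.0571, adjusted 0.1). For Atp5g1 relative to Atp5g3 the shares were 53.6%, 53.0%, 54.9% and 54.7% in Sham and 44.3%, 51.4%, 54.3% and 56.9% in SNI (log2 difference -0.07, exact p 0.514). Atp5g2 has 2 near-identical copies in the genome, so its counts are uncertain. The 3 promoters are shown because genes with the same mature product start from unlike sequence: Atp5g2 holds the NRF1 letters on both strands, overlapping (in capitals), and the others hold none of the motifs. Each window runs from 150 bases before to 30 bases into the transcript on the minus strand, of chr11:96075602-96075781 for Atp5g1, chr15:102671018-102671197 for Atp5g2 and chr2:73911297-73911476 for Atp5g3 (RefSeq, GRCm38.p6).
Atp5g1: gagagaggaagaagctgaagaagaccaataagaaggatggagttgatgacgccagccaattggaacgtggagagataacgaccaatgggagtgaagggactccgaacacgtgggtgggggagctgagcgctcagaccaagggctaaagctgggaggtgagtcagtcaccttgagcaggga
Atp5g2: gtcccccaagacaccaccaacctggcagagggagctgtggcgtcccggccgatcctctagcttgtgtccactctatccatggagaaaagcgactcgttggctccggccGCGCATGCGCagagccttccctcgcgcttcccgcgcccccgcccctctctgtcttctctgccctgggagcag
Atp5g3: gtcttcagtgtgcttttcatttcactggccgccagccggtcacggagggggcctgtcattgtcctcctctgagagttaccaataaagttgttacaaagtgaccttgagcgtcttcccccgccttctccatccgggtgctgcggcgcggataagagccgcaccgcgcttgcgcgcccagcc

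**Figure D4:**
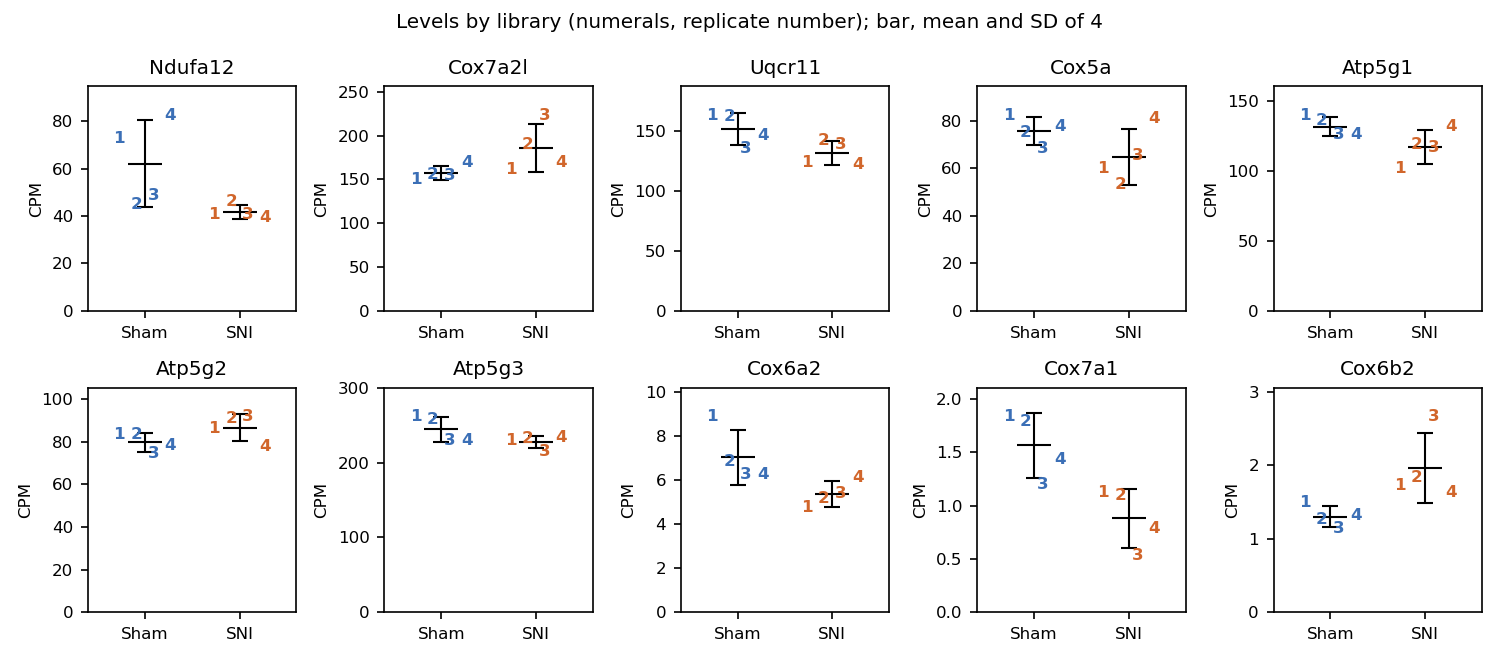
Numerals mark the replicate number at its level in CPM (vertical axes, from 0) for 10 subunit genes in Sham and SNI, and bars give the mean and SD of 4 libraries. Groups do not overlap for Cox6a2, Cox7a1 and Cox6b2, and the high Ndufa12 values are Sham replicates 1 and 4, at 72.5 and 82.4 CPM.

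**Figure D5:**
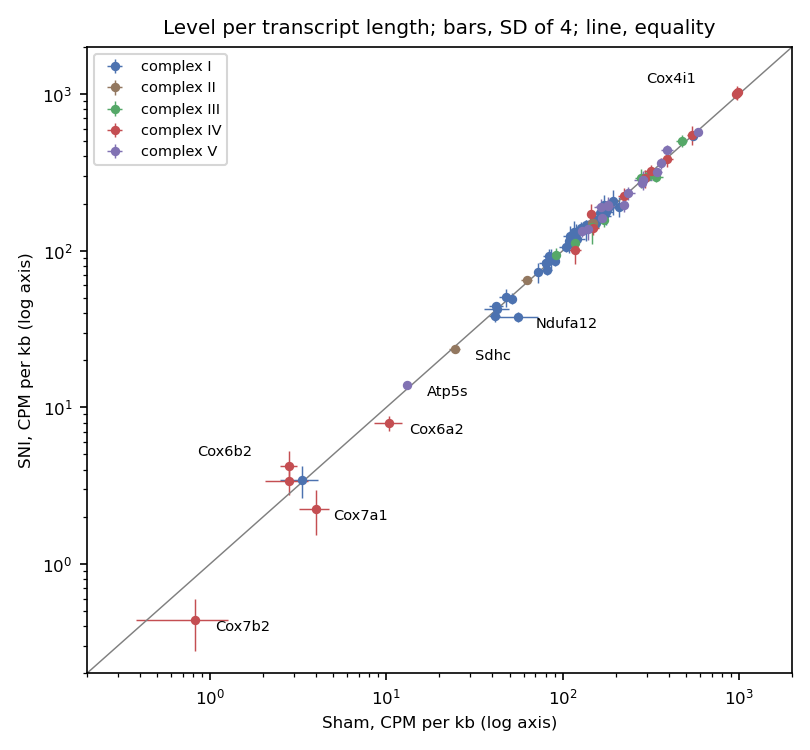
Each point is a subunit gene, placed by its mean level per kilobase of transcript in Sham (horizontal) and SNI (vertical), on log axes, with bars for the SD of 4 libraries and a line of equality. The levels span from 0.819 CPM per kb in Sham for Cox7b2 to 988.2 for Cox4i1, most genes lie close to the line, and Ndufa12, Cox7a1, Cox6b2 and the sparsely counted Cox7b2 lie off it.

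Of the 13 mitochondrially encoded partners of these subunits, 1 was called, against 5.02% of all genes tested. Their summed level was 52500 to 59600 CPM in Sham and 38700, 59000, 60400 and 50600 CPM in SNI, lowest in SNI replicate 1, with a median log2 fold change of -0.03. mt-Nd3, a membrane subunit of complex I, was called higher: 29.9, 33.7, 30.5 and 33.1 CPM in Sham and 33.1, 63.5, 58.2 and 45.9 CPM in SNI, where SNI replicate 1 lay inside the Sham range. Its log2 fold change was 0.66 with an edgeR adjusted p of 0.0461, and leaving out any 1 library other than SNI replicate 1 ended the call, with adjusted p up to 0.15, as did leaving out SNI replicates 2 and 4 together (0.181), upper-quartile scaling (0.0508), the filter of 1 CPM in 4 libraries (0.0503) and limma voom (0.0582). Poly(A) selection recovers mitochondrial transcripts unevenly, and its part here was not tested.

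Assembly factors were mostly not called. Of 17 factors for complex I none passed the test, and Timmdc1, which helps build its membrane arm, was at 21.8 ± 1.58 CPM in Sham and 17.8 ± 0.21 in SNI (log2 fold change -0.29, edgeR adjusted p 0.0947). Among 36 factors for complexes II to V, 2 were higher in SNI and none lower, against 2.15% and 2.87% of all genes tested. The median log2 fold change of the 36 was -0.03. Surf1, needed to assemble cytochrome c oxidase, measured 54.7, 55.8, 50.0 and 55.1 CPM in Sham and 66.5, 69.7, 68.9 and 61.5 CPM in SNI. Uqcc3, needed for complex III, measured 24.1, 22.2, 19.6 and 22.0 CPM in Sham and 29.4, 30.4, 30.3 and 25.6 CPM in SNI. All SNI values of both genes lay above all Sham values, with log2 fold changes of 0.31 and 0.40 and edgeR adjusted p of 0.0311 and 0.031. Both calls were lost without SNI replicates 2 and 4 (adjusted p 0.0522 and 0.0503), with the transcript length offsets (0.0847 and 0.0761) and on leaving out 1 library, which was any of the 8 but SNI replicates 1 and 4 for Surf1 and any of Sham replicates 2, 3 and 4 and SNI replicates 2 and 3 for Uqcc3 (adjusted p up to 0.126 and 0.118, both without Sham replicate 3).

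The tricarboxylic acid cycle and pyruvate dehydrogenase list supplies NADH and succinate to the chain. Of its 25 genes, 2 were higher and 1 lower, against 2.15% and 2.87% of all genes tested. The median log2 fold change of the 25 was -0.09. Dlst, the succinyltransferase of the 2-oxoglutarate dehydrogenase complex, measured 127, 126, 127 and 126 CPM in Sham and 103, 97.6, 99.5 and 106 CPM in SNI. It fell by 0.32 on the log2 scale (edgeR adjusted p 0.0171), and the call was lost only when Sham replicate 3 was left out (0.0656), among the single libraries. Idh2, the mitochondrial NADP-dependent isocitrate dehydrogenase, rose from 36.2 ± 4.56 to 47.1 ± 3.32 CPM, and Pdk4, a kinase that switches off pyruvate dehydrogenase, from 10.3 ± 2.06 to 16.6 ± 4.11 CPM (SD, n = 4 libraries each). Their edgeR adjusted p were 0.0347 and 0.0465. Idh2 was no longer called without any 1 of Sham replicates 1, 2 and 3 and SNI replicates 3 and 4 (adjusted p up to 0.126), and Pdk4 without any 1 library but Sham replicate 4 and SNI replicate 1 (up to 0.142). Without SNI replicates 2 and 4 together the adjusted p in edgeR were 0.086 and 0.206, and limma voom gave 0.061 for Pdk4.

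Of 25 regulators of mitochondrial biogenesis, none was higher and 1 was lower, against 2.15% and 2.87% of all genes tested. The median log2 fold change of the regulators was 0.01. Esrra, a nuclear receptor that acts with PGC-1 coactivators on respiratory genes, measured 57.9, 61.8, 56.7 and 57.7 CPM in Sham and 50.5, 43.8, 43.0 and 52.2 CPM in SNI, with no overlap (log2 fold change -0.31, edgeR adjusted p 0.0479). That call was lost without any 1 library but SNI replicates 1 and 4 (adjusted p up to 0.142), without SNI replicates 2 and 4 together (0.0823), and under upper-quartile scaling (0.0558), library totals alone (0.0797), limma voom (0.0709) and GC content offsets (0.0842). Sirt1, a deacetylase of the same coactivators, was at 16.8 ± 0.774 and 20.9 ± 1.3 CPM (adjusted p 0.079). Of 26 protein import genes 1 was lower, Tomm40, the channel of the outer membrane, at 83.3 ± 9.24 and 63.7 ± 5.45 CPM (SD over 4 libraries; log2 fold change -0.39, edgeR adjusted p 0.0264), and it lost the call without any 1 of Sham replicates 1, 2 and 3 and SNI replicates 2 and 3 (up to 0.0879) and without SNI replicates 2 and 4 together (0.0717). None of 13 electron carriers and ATP export proteins and none of 17 cristae and supercomplex factors was called. Vdac1, the main outer membrane channel for ATP, was at 561 ± 9.19 and 504 ± 28.2 CPM (log2 fold change -0.15, adjusted p 0.248), and Slc25a5, an ADP/ATP carrier, at 234 ± 8.1 and 207 ± 16.7 CPM (adjusted p 0.212 in edgeR).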

How the data were processed

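For 4 Sham and 4 SNI libraries of poly(A) RNA from PrL tissue, raw counts per gene symbol were deposited, the libraries having been made with dUTP in the second strand per the labels' protocols. The submitters' processing notes name fastp, HISAT2, StringTie and the build GRCm38, without versions. How counts were derived, and whether strand was used, was not given in the sources used here. No zeros occur: the smallest count is 1, so a gene needed a count in every library to have a row. Members and gene lists were chosen with earlier results of these data known.

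Counts were filtered with filterByExpr (13911 of 14765 genes kept), scaled by TMM and tested with edgeR 4.0.16 in R 4.3.3 (robust quasi-likelihood F-test, two-sided, group as the only term, Benjamini-Hochberg over all genes, FDR 0.05). The biological coefficient of variation was 12.1%. CPM are TMM-scaled, and log2 CPM uses a prior count of 2. Library totals of 14735602 to 19602487 counts set the precision, and same-group libraries differed by far more than sampling noise (chi-square per degree of freedom from 7.39 to 28.4). Levels per kilobase use the shortest principal transcript of GENCODE M21, and 7 members have principal transcripts that differ by more than 1.5-fold. In that annotation 38 members overlap another gene, 30 of them on the opposite strand, and 10 have near-identical copies (95% identity over at least 50% of the transcript), so their counts are uncertain.

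Members named are those at FDR 0.05, the 3 of smallest p in each complex, all of complex II, the isoform pairs, the highest and lowest level per length in each complex, and those that failed the filter. In each related list the 3 of smallest p were eligible. Any further gene was chosen after its values were seen. Counts cover all members, and 1 of them is not reported here by name or drawn. The method was tested on simulated data.

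Alternatives were RLE, upper-quartile and total-count scaling, no filter, keeping genes of at least 1 CPM in 4 libraries, voom with quality weights in limma 3.58.1, DESeq2 1.42.0, a replicate block, offsets for transcript length or GC content (splines of 5 degrees of freedom), each library left out in turn and, added after seeing the data, leaving out SNI replicates 2 and 4.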

Additional observations from a re-analysis of the deposited data

Results flagged for a closer look

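In 3 of 86 groups of 4 libraries, taken over 43 results, 1 library lay far from the other 3 on the log2 CPM scale, its gap to the nearest taking up most of the group's range (Dixon's 95% criterion). Chance flags about 1 in 20 such groups. Ndufa2, an accessory subunit of complex I, was at 6.44 in Sham replicate 3 and between 6.65 and 6.69 in the other Sham libraries. Atp5j2, the f subunit of the ATP synthase, was at 7.11 in Sham replicate 3 and between 7.36 and 7.38 in the others. Atp5g3, which encodes a c subunit of the ring, was at 7.75 in SNI replicate 3 and between 7.85 and 7.86 in the others. Sham replicate 3 was also the Sham library with the lowest value for 54 of the 76 widely used subunit genes.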

How the results depend on the processing

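Without any 1 library the number of genes called over the whole table ran from 258 to 858, against 698 with all 8. It was 447 without Sham replicate 1, 430 without Sham replicate 2, 258 without Sham replicate 3 and 297 without SNI replicate 3, and 438 without SNI replicates 2 and 4. DESeq2 called 1165, and the GC content offsets gave 1021. The number of subunit genes called higher was 0 under every alternative run. The number called lower was 0 to 1 over the single libraries left out (Ndufa12 without Sham replicate 2), 1 with DESeq2 (Ndufa12), 1 with transcript length offsets (Uqcr11) and 0 under the others.

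The median log2 fold change of the subunit genes was -0.0779 with transcript length offsets, where that of all genes was -0.02, and 0.06 with library totals alone, where that of all genes was also 0.06. It ran from -0.02 to 0.05 without any 1 library and was -0.04 without SNI replicates 2 and 4. Of 551 log2 fold changes of 29 named subunit genes over 19 alternatives, 532 moved by less than 1 standard error, 16 moved by more and 3 became calls. None was called in the opposite direction, and 12 genes changed sign in at least 1 alternative, the largest of them Atp5g2. The cause of these shifts was not tested. Among related genes, Timmdc1 (adjusted p 0.0499) was called with the length offsets, and Timmdc1 (0.0467) and mt-Nd5 (0.0297) with the GC offsets, Sirt1 (0.0466) with library totals alone, and Lyrm7 (0.0227) without SNI replicates 2 and 4.

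Replicate numbers did not pair the samples: deviations of same-numbered libraries correlated at -0.0349, -0.0056, -0.0824 and -0.148. With the replicate number as a block, 518 genes were called, 0 of them subunit genes, and the median of the subunit genes was 0.01. The block ended the calls of Uqcc3 (adjusted p 0.052), Surf1 (0.0621) and Esrra (0.0729). The blocked exact test of the isoform ratios gave adjusted p from 0.438 to 0.75, and 4 pairs cannot reach 0.05. Without SNI replicate 4 the exact permutation test gave an adjusted p of 0.05 for the Cox6a2, Cox6b2, Cox7a1 and Atp5g2 ratios, at the threshold but not under it. The smallest adjusted p of that test was 0.1 to 0.15 without any other single library. Depth limits the restricted isoforms near 1 CPM, where Cox7b2 held 2 to 12 counts per library.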

Other observations

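Atp5j, the coupling subunit F6 of the ATP synthase, shares a start region on chromosome 16 with Gabpa, the alpha subunit of GABP, a factor known for its sites in promoters of respiratory genes. The start of Atp5j shown here lies on the minus strand and that of Gabpa on the plus strand, and their RefSeq windows overlap (chr16:84834947-84835126 and chr16:84834974-84835153, GRCm38.p6). A further RefSeq start of Atp5j, with its window at chr16:84835596-84835775, does not overlap the Gabpa window and holds none of the motifs there. The Atp5j window shown, from 150 bases before to 30 bases into the transcript, holds the YY1 letters, given in capitals.
Atp5j: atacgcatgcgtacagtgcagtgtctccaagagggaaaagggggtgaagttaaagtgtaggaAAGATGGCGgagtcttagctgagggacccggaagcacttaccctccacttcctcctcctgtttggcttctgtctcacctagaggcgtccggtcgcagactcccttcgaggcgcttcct

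Atp5j measured 206, 201, 182 and 187 CPM in Sham and 183, 235, 182 and 173 CPM in SNI, with a log2 fold change of -0.01 (edgeR adjusted p 0.98). Gabpa measured 20.4, 24.4, 21.3 and 22.1 CPM in Sham and 20.1, 29.7, 27.4 and 28.7 CPM in SNI, with a log2 fold change of 0.27 (edgeR adjusted p 0.222). SNI replicate 2 was the highest library for both genes, and SNI replicate 4 was the lowest for Atp5j and above every Sham library for Gabpa.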
